A study of Mus musculus with 8 samples.

Results

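The 7 subunits of respiratory complex I that the mouse mitochondrial genome encodes (ND1, ND2, ND3, ND4, ND4L, ND5 and ND6) were described in activated CD8 T cells given formate or vehicle. They were taken from the deposited table of 35072 genes by gene name, which the table writes without the mt- prefix, and all 7 were found and passed the filter on low counts. Naive CD8 T cells were taken from spleen and lymph nodes of wildtype mice and stimulated for 18 h through CD3 and CD28 in the presence of interleukin-12. They were then kept for 24 h with PBS (control, 4 libraries) or 2 mM formate (4 libraries), so that activation and interleukin-12 are common to both groups. Libraries are named here by the number in their titles: controls 1, 7, 10 and 13, and formate libraries 2, 8, 11 and 14. Values are CPM (counts scaled to a common library size after TMM normalisation), unless another unit is given, and errors are SD with n = 4.

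Complex I takes electrons from NADH, passes them to ubiquinone and pumps protons across the inner mitochondrial membrane. Its 7 mitochondrial subunits build the membrane arm: ND2, ND4 and ND5 are the antiporter-like subunits, ND1 and ND3 lie near the ubiquinone site, and ND4L and ND6 sit between them. Both strands of the mitochondrial genome are transcribed into long precursors that are cut at the tRNAs, after which most mRNAs receive a short poly(A) tail. Activated T cells enlarge their mitochondria as they grow and divide. Formate enters the folate cycle as a carbon unit.

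The 7 genes lie on the mitochondrial genome (GRCm38, GENCODE M21), 6 on the plus strand and ND6 on the minus strand. They are ND1 (ENSMUSG00000064341, chrM:2751-3707), ND2 (ENSMUSG00000064345, chrM:3914-4951), ND3 (ENSMUSG00000064360, chrM:9459-9806), ND4L (ENSMUSG00000065947, chrM:9877-10173), ND4 (ENSMUSG00000064363, chrM:10167-11544), ND5 (ENSMUSG00000064367, chrM:11742-13565) and ND6 (ENSMUSG00000064368, chrM:13552-14070). The annotation gives each as a single coding transcript without introns, of 297 bases (ND4L) to 1824 bases (ND5). GC content ran from 33.05% (ND3) to 41.08% (ND4L). The plus-strand transcripts held 8.0% to 11.6% G, and that of ND6 held 28.1% G and 6.0% C. The libraries were made from polyadenylated RNA, so the ends of the reading frames are shown, with the stop codon, or the base left after the last whole codon, in capitals.
ND1: ggagtaccaccatacataTAG
ND2: gccccccaactaattaccTAG
ND3: ggattagaatgaacagagTAA
ND4L: ctcaacctactacaatgcTAA
ND4: taattacaggcctgacaataT
ND5: tactcaattaatctcgagTAA
ND6: atcgagattactcgagatTAA
ND4 alone ends in a single T, and adding the poly(A) tail to this base makes its stop codon. ND4L and ND4 share 7 bases (chrM:10167-10173, capitals) and are known to be carried on 1 mRNA, so their counts are not separate measurements of separate molecules. ND5 and ND6 face each other and share 14 bases (chrM:13552-13565, capitals, plus strand shown).
ND4L to ND4: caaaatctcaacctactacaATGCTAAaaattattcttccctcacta
ND5 to ND6: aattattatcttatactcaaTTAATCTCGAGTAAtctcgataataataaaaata
The strand setting of the authors' counting is not given in the sources used here, and reads in the 14 shared bases of ND5 and ND6 cannot be assigned from the table. Nor does the table tell whether reads of any plus-strand RNA across the rest of ND6 were counted for ND6.

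Nuclear copies of mitochondrial DNA match long stretches of ND3, ND4L and ND4. Among the 7 members it is mainly ND3 whose reads the estimated counts divide with a copy. The copies of these 3 genes lie on chromosome 1, where GENCODE M21 lists Gm28438 (a copy of ND3, chr1:24612775-24613119), Gm10222 (of ND4L, chr1:24612407-24612700) and Gm28439 (of ND4, chr1:24611535-24612410). Of the stretches of 31 bases in the ND3 transcript, 98.1% also stand in nuclear transcripts, as do 98.9% of those of ND4L and 62.8% of those of ND4, against 0.0% for ND1 and at most 16.8% for ND2, ND5 and ND6. The copies of ND4 and ND4L are identical to the gene over 876 and 294 bases, and both have 0 counts in all 8 libraries. Reads wholly within these stretches cannot be told apart by sequence, so the 0 counts reflect how the estimate assigned them. Copies of ND2 (Gm13339) and ND6 (Gm11408) have 1 count each over all libraries. Gm28438 matched ND3 at 344 of 345 bases and differed by T3C (ND3 base, position from the first base of ND3, base of the copy), shown in capitals.
ND3, chrM:9459-9481, plus strand: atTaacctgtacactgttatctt
Gm28438, chr1:24613097-24613119, minus strand: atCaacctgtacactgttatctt
Gm28438 received counts in every library, and ND3 is the member whose estimated count was whole in 0 of 8 libraries. ND1, ND4, ND4L, ND5 and ND6 were whole in all 8 (within 1e-06) and ND2 in 7.

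With formate, 6 of the 7 genes had a higher mean, by 1.38-fold (ND6) to 1.75-fold (ND4L), and ND3 did not (0.98-fold). None of the 7 passed the test between groups. edgeR's quasi-likelihood test without pairing gave each an adjusted p of 0.998, with raw p between 0.00228 (ND4) and 0.0174 (ND6) for the 6 and 0.806 for ND3. In that fit 0.00752% of all genes passed, and a raw p under 0.05 with a higher level in formate was reached by 3.05% of the 13299 tested genes. In 5 members (ND1, ND2, ND4, ND4L and ND5) every formate library lay above every control, which held for 2.47% of all tested genes. The genes are cut from shared precursors, so the 7 are not independent of each other. No label tells whether the libraries of a group stem from separate mice or cultures, so the p-values reflect the spread between these libraries, which may be technical. In bulk RNA, fewer cells of a type and less RNA per cell cannot be told apart.

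**Figure D1:**
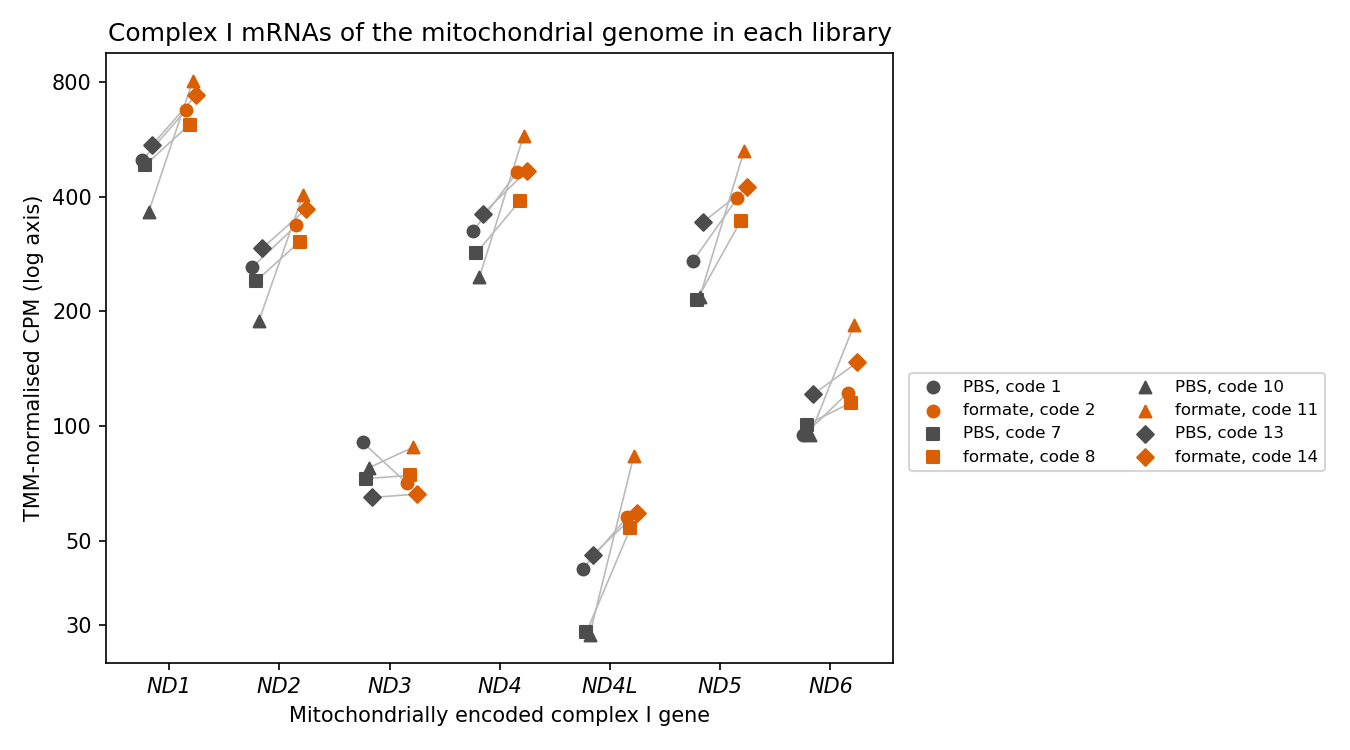
TMM-normalised CPM (log axis) of the 7 genes in each of the 8 libraries, PBS in grey and formate in orange. Symbols mark title codes and lines join neighbouring codes. For 5 genes all formate points lie above all PBS points, the ND6 ranges overlap and the ND3 points of both groups lie between 65.0 and 90.7.

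ND1, the subunit beside the ubiquinone site, had the highest level per length of the 7. Its controls 1, 7, 10 and 13 were at 498, 485, 365 and 547 CPM, and its formate libraries 2, 8, 11 and 14 at 677, 619, 807 and 740 CPM. The groups did not overlap, and the lowest control and the highest formate library were neighbours in title code. The means were 474 ± 77.0 and 711 ± 81.0 CPM (log2 change 0.58, SE 0.14).

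The 3 antiporter-like subunits were higher in every formate library than in any control, without passing the test. ND2 was at 262, 240, 189 and 293 CPM in the controls and at 337, 305, 405 and 372 CPM with formate (log2 change 0.53, SE 0.15). ND4 was at 325, 284, 246 and 361 CPM in the controls and at 464, 391, 578 and 468 CPM with formate (0.64, SE 0.15). ND5, the longest of the 7, was at 272, 214, 219 and 344 CPM in the controls and at 397, 346, 527 and 424 CPM with formate (0.69, SE 0.18). In all 3 genes formate 11 was the highest library and formate 8 the lowest of its group. For ND5 the margin between the groups was smallest, with 344 CPM in control 13 against 346 CPM in formate 8.

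Of the small subunits, ND4L, which shares its mRNA with ND4, had the largest difference and ND3 the smallest. ND4L was at 42.2, 28.7, 28.3 and 46.0 CPM in the controls and at 57.7, 54.0, 83.5 and 59.1 CPM with formate (log2 change 0.81, SE 0.20). Controls 7 and 10 were well below controls 1 and 13, and all 4 lay below the formate libraries. ND6, the subunit from the other strand, was at 94.5, 101, 94.9 and 121 CPM in the controls and at 122, 115, 184 and 147 CPM with formate (0.47, SE 0.16). Control 13 exceeded formate 8, so the ND6 ranges overlapped, and formate 11 stood highest. ND3 was at 90.7, 72.8, 77.8 and 65.0 CPM in the controls and at 70.9, 74.3, 88.1 and 66.3 CPM with formate, and these ranges overlapped throughout. Its log2 change was -0.03 (SE 0.13), against 0.005 (SE 0.13) with library size only.

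Neighbouring title codes (1 and 2, 7 and 8, 10 and 11, 13 and 14) each join 1 control and 1 formate library, and the libraries were also compared within these pairs. All members but ND3 were higher with formate in 4 of 4 pairs, as were 16.0% of all tested genes. The pair 10 and 11 had the largest difference in each of these 6 members. For ND1 the log2 differences were 0.44, 0.35, 1.14 and 0.44 in the order of the codes. For ND5 they were 0.55, 0.69, 1.27 and 0.30, and for ND4L 0.45, 0.91, 1.56 and 0.36. In the other 3 pairs the members other than ND3 differed by 0.19 (ND6, codes 7 and 8) to 0.91 (ND4L, codes 7 and 8). ND3 differed by -0.35, 0.03, 0.18 and 0.03.

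**Figure D2:**
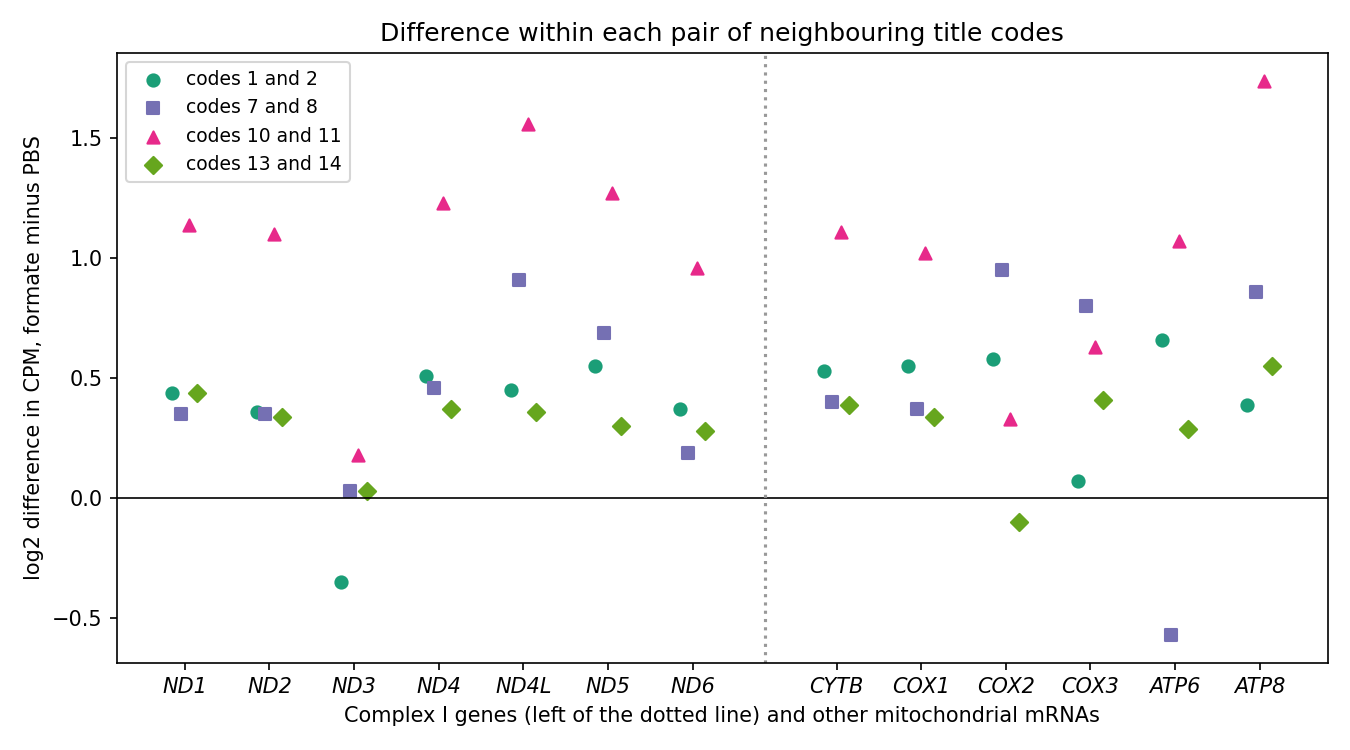
Log2 difference in CPM (formate minus PBS) in each pair of neighbouring title codes, for the 7 complex I genes and the other 6 mitochondrial mRNAs. The pair 10 and 11 stands highest in all 7 complex I genes, at 1.56 for ND4L, and ND3 is the complex I gene nearest to 0.

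With the pairs as a block, 0 of 7 members passed in edgeR, where 12.9% of all genes did (5.35% higher with formate). The adjusted p lay between 0.136 (ND1) and 0.191 (ND6) for the 6 members with a difference and was 0.839 for ND3, and raw p was under 0.05 for 4 members (ND1, ND2, ND4 and ND5), as it was, with a higher level in formate, for 12.7% of all tested genes. Without the pair 10 and 11, the same edgeR test with a block called 6 of 7, all higher and with smaller changes: ND1 0.41 (adjusted p = 0.0021), ND2 0.35 (0.00333), ND4 0.45 (0.00189), ND4L 0.56 (0.0229), ND5 0.51 (0.00706) and ND6 0.28 (0.00964). In that fit 4.18% of all genes were called higher. With any other pair left out instead, the test called 0 of 7. DESeq2 with the block called 5 of 7 higher (ND1, ND2, ND4, ND4L and ND5, adjusted p between 0.0131 and 0.0427). It called 5.08% of 9689 genes higher, a smaller set of genes than in the edgeR fits. The libraries also split by title code into 1 to 8 and 10 to 14. Within codes 1 to 8 the log2 changes of the 6 members were 0.27 (ND6) to 0.65 (ND4L), and within codes 10 to 14 they were 0.63 (ND6) to 0.95 (ND4L), with no member passing edgeR in either.

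The members are among the genes poorest in G and C. Of the tested genes, 5.8% had a lower transcript GC content than ND4L and 0.01% a lower one than ND3. With the trend of each library on GC content removed and the pairs as a block, the log2 changes were smaller: ND1 0.365, ND2 0.251, ND4 0.355, ND4L 0.686, ND5 0.458 and ND6 0.111, none of which passed edgeR. ND3 then had -0.40 (SE 0.06, edgeR adjusted p = 0.00309), in a fit that called 7.68% of genes lower. ND3 lies at the low edge of the GC trend, and its SE and adjusted p leave out the error of that trend. The part of GC content in the results was not tested beyond this fit.

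ND3 was followed together with its nuclear copy, since the estimate divides its reads. The sum of ND3 and Gm28438 came to a whole number in every library (within 1e-06), 3421 to 5290 counts. Of this sum 22.4% to 46.3% were assigned to the copy, with the lowest shares in control 10 (24.0%) and formate 11 (22.4%). The sum was at 143, 126, 102 and 112 CPM in controls 1, 7, 10 and 13 and at 132, 137, 114 and 115 CPM in formate libraries 2, 8, 11 and 14. The groups overlapped here too, at 121 ± 17.6 and 124 ± 11.8 CPM. With copies added to their mitochondrial genes, ND3 had a log2 change of 0.04 (SE 0.12) in edgeR without pairing and 0.05 (SE 0.05, adjusted p = 0.584) with the block. The log2 ratio of ND3 to the other 6 members differed between the group means by -0.64 (formate minus control), and by -0.56 with the reads of the copy added.

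**Figure D3:**
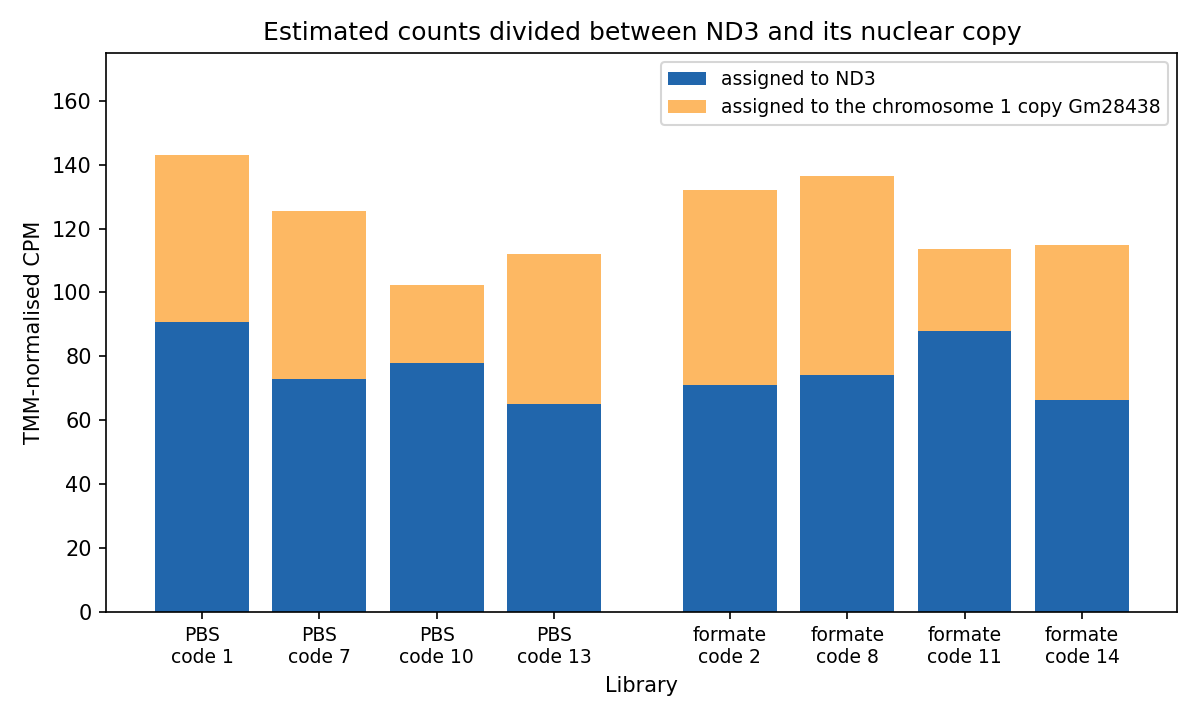
TMM-normalised CPM of ND3 (blue) and of its chromosome 1 copy Gm28438 (yellow), stacked, in each library. The stacked totals lie between 102 and 143 CPM and the groups overlap; codes 10 and 11 have the smallest copy portion.

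Within the counts of the 7 members ND3 held 5.21% ± 1.16 in controls and 3.36% ± 0.407 with formate. Set against the other 6 members, ND3 held 6.07%, 5.38%, 6.81% and 3.80% of their counts in controls 1, 7, 10 and 13 and 3.45%, 4.06%, 3.41% and 3.0% in formate libraries 2, 8, 11 and 14. The ratio was lower with formate in 4 of 4 pairs, and the groups overlapped because control 13 lay below formate 8. With the copy added, the ratio was 8.59% ± 1.39 in controls and 5.87% ± 1.35 with formate, again lower in 4 of 4 pairs. Of the counts of all 13 mitochondrial mRNAs, ND3 held 1.67% ± 0.386 and 1.10% ± 0.177. ND6 held 2.21% ± 0.120 and 2.05% ± 0.0380, with every formate library below every control, although the groups overlapped once the nuclear copies were counted in the total. ND1, the most abundant member, held 10.2% ± 1.51 and 10.4% ± 0.900, and ND2 held 5.27% ± 0.726 and 5.18% ± 0.414. With nuclear copies counted in the total, ND1 held 8.1% and 8.3%. The other members had higher mean shares with formate, with overlapping groups. ND4 went from 6.5% to 6.9% (higher in 4 of 4 pairs), ND5 from 5.6% to 6.1% (3 of 4) and ND4L from 0.774% to 0.919% (3 of 4). These shares are given as a description, with no test.

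**Figure D4:**
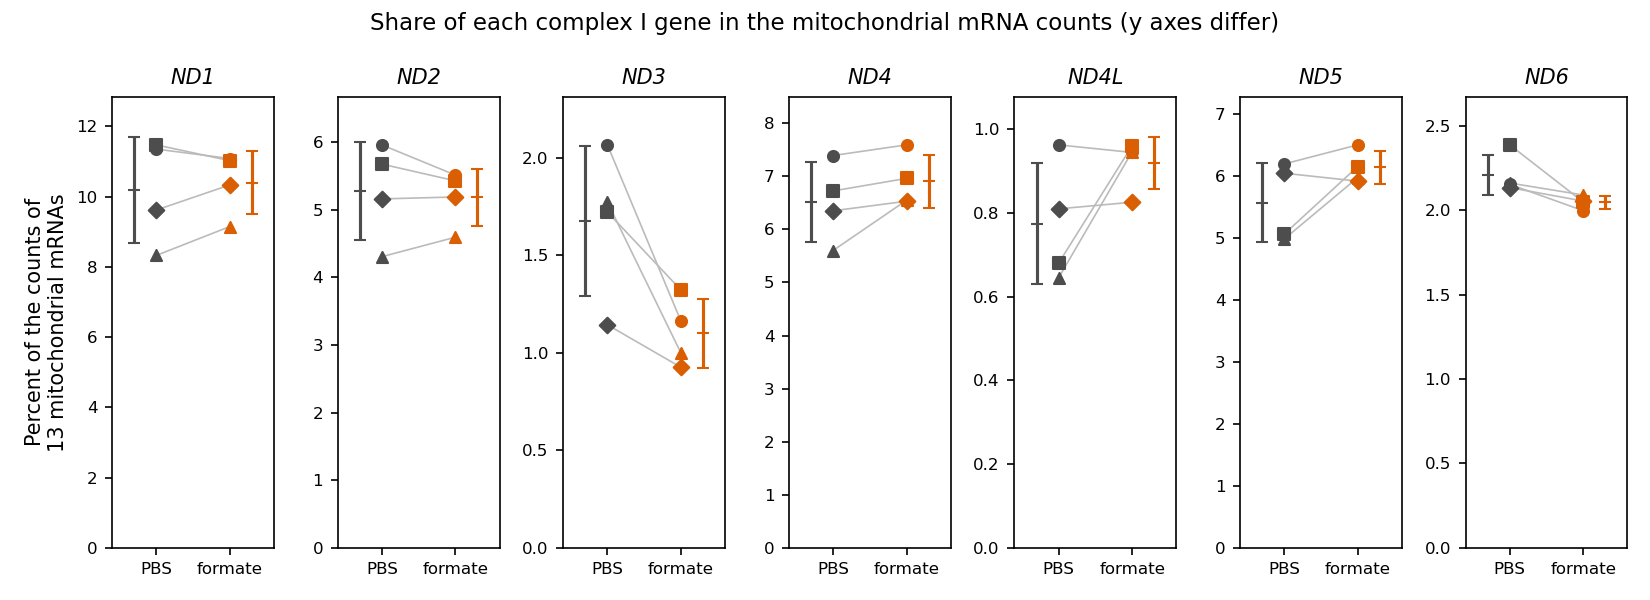
Percent of the counts of the 13 mitochondrial mRNAs held by each complex I gene, PBS in grey and formate in orange, with lines joining neighbouring codes and bars for mean and SD (n = 4). ND3 is lower with formate in 4 of 4 pairs, as is ND6 by a smaller amount, and the ND1 means are 10.2% and 10.4%. Counts assigned to nuclear copies are not included.

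Ratios between 3 pairs of members are given as a description. The ND4L count was 0.101 to 0.130 of the ND4 count in controls and 0.124 to 0.145 with formate. The ND6 count was 0.348, 0.472, 0.434 and 0.353 of the ND5 count in controls 1, 7, 10 and 13 and 0.307, 0.333, 0.350 and 0.347 in formate libraries 2, 8, 11 and 14, lower with formate in 4 of 4 pairs with overlapping groups. The ND1 count was 1.86 to 2.02 times that of ND2 in controls and 1.99 to 2.03 times with formate. SDs of the ND6 to ND5 ratio were 0.0612 in controls and 0.0195 with formate, and were not tested against each other. How plus-strand reads across ND6 were counted is not known, which limits this ratio and the ND6 shares.

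Taken per length, as CPM per kilobase of transcript, ND1 led the members in controls with 495 ± 80.5. ND2 (237 ± 42.2), ND4 (220.5 ± 36.1), ND3 (219.9 ± 31.02) and ND6 (198 ± 24.3) followed, with overlapping SDs between libraries. ND5 (144 ± 33.1) and ND4L (122 ± 30.8) were lowest and overlapped, and the range of ND5 (117 to 188) also reached that of ND6 (182 to 234). These SDs and ranges are between libraries. The genes were not compared within each library, so the overlaps do not show that their levels are alike. With formate the order was ND1 (743 ± 84.7), ND4 (345 ± 55.9), ND2 (342 ± 41.9), ND6 (274 ± 60.5), ND5 (232 ± 41.9), ND3 (215 ± 26.9) and ND4L (214 ± 45.3). By the counts assigned to ND3 alone, ND3 was thus level with ND4 in controls and with ND4L with formate. With the counts of Gm28438 added, ND3 was at 121 CPM in controls and 124 CPM with formate, against 76.5 and 74.9 CPM without them. Its place in this order therefore depends on how reads were divided with the copy. Lengths are those of the whole transcript, with no correction for fragment size. Nor do the counts tell whether all members, ND6 among them, were captured alike by the selection of polyadenylated RNA. ND4L and ND4 stand on the same mRNA and differed in level per length, by 122 against 220.5 CPM per kilobase in controls.

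In total the 7 members held 0.148% ± 0.0248 of all counts in controls and 0.227% ± 0.0356 with formate. By library this was 0.158%, 0.139%, 0.119% and 0.177% in controls 1, 7, 10 and 13 and 0.215%, 0.190%, 0.274% and 0.230% in formate libraries 2, 8, 11 and 14. Every formate library lay above every control, and control 10 and formate 11 were the extremes. The other 6 mitochondrial mRNAs (CYTB of complex III, the COX genes of cytochrome oxidase and the ATP synthase genes) had a median log2 change of 0.54, and the 7 members one of 0.58, where all tested genes had -0.01. None of the 6 passed edgeR in either fit, and all 6 had a higher mean with formate. The members made up 32.2% ± 3.54 of the counts of the 13 mRNAs in controls and 32.7% ± 2.04 with formate. These counts exclude those assigned to nuclear copies, which COX1, COX2, COX3 and ATP6 have too. On average the copies took 7.35%, 67.0%, 45.4% and 44.2% of gene plus copy counts in controls. With formate they took 5.33%, 68.8%, 44.3% and 54.3%. With copies counted, the 13 went from 0.462% to 0.578% of all counts in controls and from 0.702% to 0.877% with formate.

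By the root mean square difference of centred log2 CPM over the 8 libraries, the genes outside the mitochondrial genome with the pattern most like the mean of the members were Tmc4 (a transmembrane channel-like gene, 0.14), Rimoc1 (0.16), Amz1 (a metallopeptidase gene, 0.16), Zfp329 (a zinc finger gene, 0.16) and Pde1b (a cyclic nucleotide phosphodiesterase, 0.16). The median over the 9150 genes compared was 0.39. Among the members themselves ND4 (0.07) and ND2 (0.07) lay closest to the mean and ND3 (0.35) farthest. Rimoc1 had a log2 change of 0.44 and Tmc4 one of 0.43, below those of the 5 members whose groups did not overlap. These genes were chosen for closeness to the members' mean in the same libraries, so changes near that mean follow from the choice.

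The nuclear genes that build complex I with the members were read from the same fits. Of 36 nuclear-encoded subunits none passed edgeR without pairing, and with the block 3 rose, 2 fell and 31 did not pass, where 12.9% of all genes passed. Their median log2 change was 0.04. Ndufv1, which carries the NADH site, fell from 122 ± 7.73 to 105 ± 8.32 CPM (-0.22, SE 0.05, edgeR block adjusted p = 0.0166), and Ndufa10 fell by 0.17 on the log2 scale. Ndufs4 and Ndufa7, both accessory subunits, rose by 0.18 and 0.19. The summed level of the 36 genes was 2970 ± 306 and 3000.0 ± 264 CPM, and that of the 7 members was 1500.0 ± 236 and 2240 ± 324. Of 17 tested assembly factors 1 rose with the block, Ndufaf4 (0.20, edgeR adjusted p = 0.0323), none fell and 16 did not pass.

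Genes that transcribe, process and stabilise mitochondrial RNA, or regulate its expression, were read from the same fit with the block, which called 12.9% of all genes. Of 17 transcription and replication genes 2 rose with the block, none fell and 15 did not pass (median 0.03). Tefm, the mitochondrial transcription elongation factor, went from 15.5 ± 1.85 to 18.7 ± 2.31 CPM (0.27, SE 0.08, edgeR block adjusted p = 0.0287), and Mterf1b, a copy of the transcription termination factor gene, rose by 0.52 from a low level (2.48 CPM in controls). Of 20 genes for RNA processing and stability 1 rose, 2 fell and 17 did not pass (median -0.03). Lrpprc, which protects mitochondrial mRNAs and keeps them polyadenylated, fell from 150 ± 29.2 to 132 ± 25.4 CPM (-0.18, SE 0.05, edgeR block adjusted p = 0.0194). Elac2, which cuts tRNAs from the precursors, fell by 0.18, and Fastkd2, an RNA-binding protein of mitochondria, rose by 0.17. Of 8 tested regulators of mitochondrial gene expression 2 fell with the block and 6 did not pass (median -0.06), Gabpa by 0.16 and Nrf1 by 0.15. All of these called genes had an edgeR adjusted p of 0.998 without the pairing.

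Library totals were 29361986 to 41393093 counts, and the members had 851 (ND4L, control 7) to 27531 counts (ND1, formate 14) in a library. The labelled cell type was read from 10 defining genes, which summed to 2840 to 3470 CPM in controls and 2920 to 3140 CPM with formate. Of these Trac alone was called with the block (-0.17, edgeR adjusted p = 0.0179). Cd8a was at 550 CPM in both groups. The 4 CD4 T cell genes summed to 12.8 to 20.5 CPM in controls and 12.8 to 22.0 CPM with formate. Of 10 B cell genes, summing to 172 to 185 CPM in controls and 162 to 177 CPM with formate, Ighm held most, and Ms4a1 alone was called with the block (0.62). Within pairs the B cell sum was lower with formate in 4 of 4. Myeloid and dendritic genes summed to 3.61 to 6.04 CPM in controls and 4.26 to 7.05 CPM with formate, and their sum was higher with formate in 4 of 4 pairs, with overlapping groups. Of these 10 genes 3 were tested and none passed edgeR with the block. The sums of the CD8 and CD4 T cell genes were higher with formate in 2 of 4 pairs. Over all libraries natural killer genes summed to 0.101 to 0.486, erythroid and platelet genes to 0.110 to 0.872 (Pf4 at 0 in all) and stromal genes to 17.5 to 24.3, nearly all Pecam1, with Cdh5 at 0 in all. The part of these markers in the results was not tested. The 2 mitochondrial rRNAs and 4 nuclear-retained RNAs such as Malat1 were looked up by symbol and identifier, and 0 were found among the genes counted.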

How the data were processed

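The authors deposited 1 table of estimated counts (expected counts) per gene and library, not normalised and not pooled. The submitters' processing notes list kallisto, Trimmomatic and MultiQC as tools and mm10 and GRCm38 as builds, without versions. Annotation, strand setting and filters: not given in the sources used here. Libraries came from a stranded mRNA kit read as pairs of 58 bases, per the labels' protocols.

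Counts were rounded and tested over all 13299 genes that passed filterByExpr, with edgeR 4.0.16 in R 4.3.3 (TMM scaling, robust quasi-likelihood fit, threshold 0.05 on the Benjamini-Hochberg adjusted p). Alternatives were other scalings, DESeq2 1.42.0, no filter, left-out libraries, a replicate block, a library set term, a GC trend per library (lowess, span 0.3) and added nuclear copies. Of tested genes 99.3% had a GC value. On simulated counts both edgeR fits were tested before use. These counts were drawn without a difference between pairs, so they cannot decide between the fit without pairing and the block.

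Groups come from the treatment label. Pairs come from neighbouring title codes, and no label states them. Deviations from the group means correlated by 0.653, 0.369, 0.656 and 0.370 within the pairs, and 7 of 8 libraries correlated best with their neighbour. No 2 libraries of a group agreed within sampling noise (smallest chi-square per degree of freedom 22.2).

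The members and gene lists were chosen with earlier results of these data known. All members are named. Of each list up to 4 genes called with the block are named by smallest p, and 5 genes most alike in pattern (mean of at least 5 CPM, with a symbol other than Gm numbers and Rik names). Sequences, lengths and coordinates come from GENCODE M21 (GRCm38), and list genes without a symbol in the table were found by identifier.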

Additional observations from a re-analysis of the deposited data

Results flagged for a closer look

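In 38 groups of 4 libraries checked, 3 values stood apart from the other 3 libraries of their group, where chance flags about 1 in 20. The share of ND3 and Gm28438 counts assigned to Gm28438 was 22.4% in formate 11, against 42.3% to 46.3% in the other formate libraries. ND4L held 0.825% of the counts of the 13 mitochondrial mRNAs in formate 14, against 0.944% to 0.960% in the others. ND6 held 2.39% of these counts in control 7, against 2.13% to 2.16% in the other controls.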

How the results depend on the processing

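The 6 members other than ND3 had a higher level with formate in each of 28 alternatives, and none of the 18 without a block called a member. ND3 had -0.403 with the GC correction and replicate block (edgeR adjusted p = 0.00309), the alternative that called it. That p leaves out the error of the GC trend, at whose low edge ND3 lies. Elsewhere it changed sign: 0.005 with library size only (0.006 with the block), 0.059 without control 1, 0.016 without formate 14 (range -0.124 to 0.059 with 1 library left out), 0.128 within codes 10 to 14, 0.088 with the replicate block without codes 1 and 2, and 0.041 and 0.047 with nuclear copies added. Of 7 members, DESeq2 with the replicate block called 5, the GC correction with the replicate block 1 (ND3, lower), and the block without codes 10 and 11 called 6 (0 to 6 over the pairs left out). Over all genes, against 1 called unpaired, DESeq2 called 21. The replicate block called 1711, with DESeq2 1574, with library size only 1587 (1048 higher and 539 lower, against 711 and 1000), with the GC correction 1485, with library sizes without mitochondrial genes 1700 and with copies added 1733. The block without codes 1 and 2, 7 and 8, 10 and 11 or 13 and 14 gave 337, 722, 1371 and 502, leaving out 1 library 0 or 1, and each code set alone 0. Without 1 library the difference in the members' share of all counts was 0.0633 to 0.0916 percentage points (0.0790 with all). The cause of these changes was not tested. Member counts of 851 or more leave little counting error.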
